A study of Homo sapiens with 22 samples.

Results

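The messenger RNA of 10 genes that set how much RAS is loaded with GTP was followed across 5 treatment groups of a lung adenocarcinoma xenograft. The genes were taken by symbol from the deposited table of 58735 genes, by a rule that names their role in RAS loading and uses no measured value. These genes were, however, chosen with earlier results of these data known. They are the adaptors GRB2, SHC1 and FRS2, the phosphatase gene PTPN11 with the docking proteins GAB1 and GAB2, the exchange factors SOS1 and SOS2, and the GTPase activators NF1 and RASA1. All 10 were among the 17652 genes with enough counts to be tested.

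Total RNA was sequenced from 22 tumours of the human lung adenocarcinoma line H2110, which was injected into a host and grown to about 300 mm³. Every group shared this 1 line, with the genotype labelled WT, and oral dosing for 3 days. RMC-7977, an inhibitor of RAS proteins in their active state, was given at 10 mg/kg to 4 tumours. RMC-4550, an allosteric inhibitor of SHP2, the protein of PTPN11, was given at 30 mg/kg to 4 tumours. Trametinib at 0.3 mg/kg and Cobimetinib at 3 mg/kg, both inhibitors of the kinase MEK, were given to 4 tumours each, and 6 tumours had Vehicle. The study's title names RIT1, a small GTPase of the RAS family, as its subject. Neither the host species nor whether the tumours came from separate animals is stated in the labels, so p-values measure the spread between these tumours.

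An activated growth factor receptor is phosphorylated on tyrosines, to which GRB2 binds directly or through SHC1 and FRS2. GRB2 brings SOS1 and SOS2 to the membrane, where they exchange the GDP on RAS for GTP, while NF1 and RASA1 speed the hydrolysis of that GTP and so switch RAS off. SHP2 binds phosphorylated GAB1, GAB2 and FRS2 and is needed for full RAS activation downstream of many receptors, and ERK at the end of the pathway phosphorylates several of these proteins in negative feedback.

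Total counts ran from 10353740 to 15005429 for the RMC-7977 libraries, 11951272 to 15888488 for RMC-4550, 7761987 to 13133140 for Trametinib, 12655067 to 15428394 for Cobimetinib and 11160546 to 17265754 for Vehicle. All 8 epithelial markers of the cell line were tested, and their summed level in CPM (counts scaled to library size, with TMM factors) was 3940 to 5980 in RMC-7977 tumours, 3050 to 4520 with RMC-4550, 3880 to 4850 with Trametinib, 3350 to 4260 with Cobimetinib and 4570 to 5670 with Vehicle. The keratins carried this sum, and the lung lineage markers NKX2-1 and NAPSA were low, at group means of 2.62 to 6.34 CPM and 0.92 to 2.04 CPM. Of the other cell types, 5 of 8 endothelial, 4 of 8 myeloid, 1 of 8 fibroblast and 0 of 6 lymphoid markers were tested. Summed myeloid markers lay at 6.96 to 10.7 CPM in RMC-7977 tumours, with CD68 and TYROBP at 0 in all 4. They lay at 8.52 to 15.0 with RMC-4550, 15.2 to 38.7 with Trametinib, 11.2 to 22.4 with Cobimetinib and 11.8 to 27.1 with Vehicle, where TYROBP was also at 0. The zeros do not set RMC-7977 apart, as CD68 averaged 0.035 CPM or less in every group and TYROBP 0.0703 CPM or less outside Trametinib. CD14 had the highest mean of the myeloid markers in every group, at 6.16 CPM under RMC-7977 and 7.41 CPM or more elsewhere. LAPTM5 averaged 0.395 CPM under RMC-7977 and 5.4 CPM with Vehicle. Summed endothelial markers lay at 18.9 to 77.9 CPM in RMC-7977 tumours, 45.5 to 69.2 with RMC-4550, 55.5 to 246 with Trametinib, 64.8 to 120 with Cobimetinib and 40.7 to 198 with Vehicle. Trametinib replicate 4 had the highest endothelial, myeloid (38.7 CPM) and lymphoid (4.96 CPM) sums of the 22 tumours. Summed fibroblast markers lay at 91.4 to 213 CPM in RMC-7977 tumours, 71.9 to 228 with RMC-4550 and 59.5 to 142 with Trametinib. They lay at 123 to 220 with Cobimetinib and 21.4 to 305 with Vehicle. COL1A1 carried this sum, and its mean was lowest under Trametinib, at 83.8 CPM against 156 to 203 CPM. The other fibroblast markers except THY1 (0 CPM) were highest under Trametinib, at 3.56 CPM or less, LUM with at most 0.0653 CPM elsewhere. The endothelial marker EMCN averaged 6.05 CPM there and at most 0.153 CPM elsewhere, while CLDN5, at 61.2 CPM, was below Vehicle (81.9 CPM). These Trametinib means include replicate 4, with an endothelial sum of 246 CPM against 55.5 to 139 CPM in the other Trametinib tumours. It had 7 fibroblast markers detected, against 2 to 5 in those tumours, and its share in the means was not tested. In bulk tumours fewer cells of a type and less RNA per cell cannot be told apart.

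Of these libraries 4 stood apart from the other 18, and values without them are given below. In Trametinib replicate 4 only 1.99% of detected genes had 1 or 2 counts, and in RMC-7977 replicate 3 5.02%, against 13.4% to 22.9% in the other 18. Trametinib replicate 4 was also the least like the rest, with a median correlation of 0.751 to the other libraries against 0.957 to 0.977 for the 18. RMC-4550 replicate 1 and Vehicle replicate 1 had the most negative rank correlations of expression with the GC content of genes, −0.58 and −0.54, against −0.48 to 0.50 in the 18.

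Under RMC-7977 the docking protein gene GAB1 rose 1.79-fold and was the only member past the threshold, an adjusted p under 0.05 in the edgeR quasi-likelihood test. It was 1 of 10 members, where 0.748% of all tested genes passed in that comparison and 0.3% passed as higher. The exchange factor gene SOS2 did not pass, yet it and GAB1 each lay higher in all 4 RMC-7977 tumours than in all 18 tumours of the other groups. That held for 91 tested genes, 0.516%. No member passed for RMC-4550, Trametinib or Cobimetinib against Vehicle, and PTPN11 itself averaged 89.2 to 98.8 CPM over the 5 groups.

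**Figure D1:**
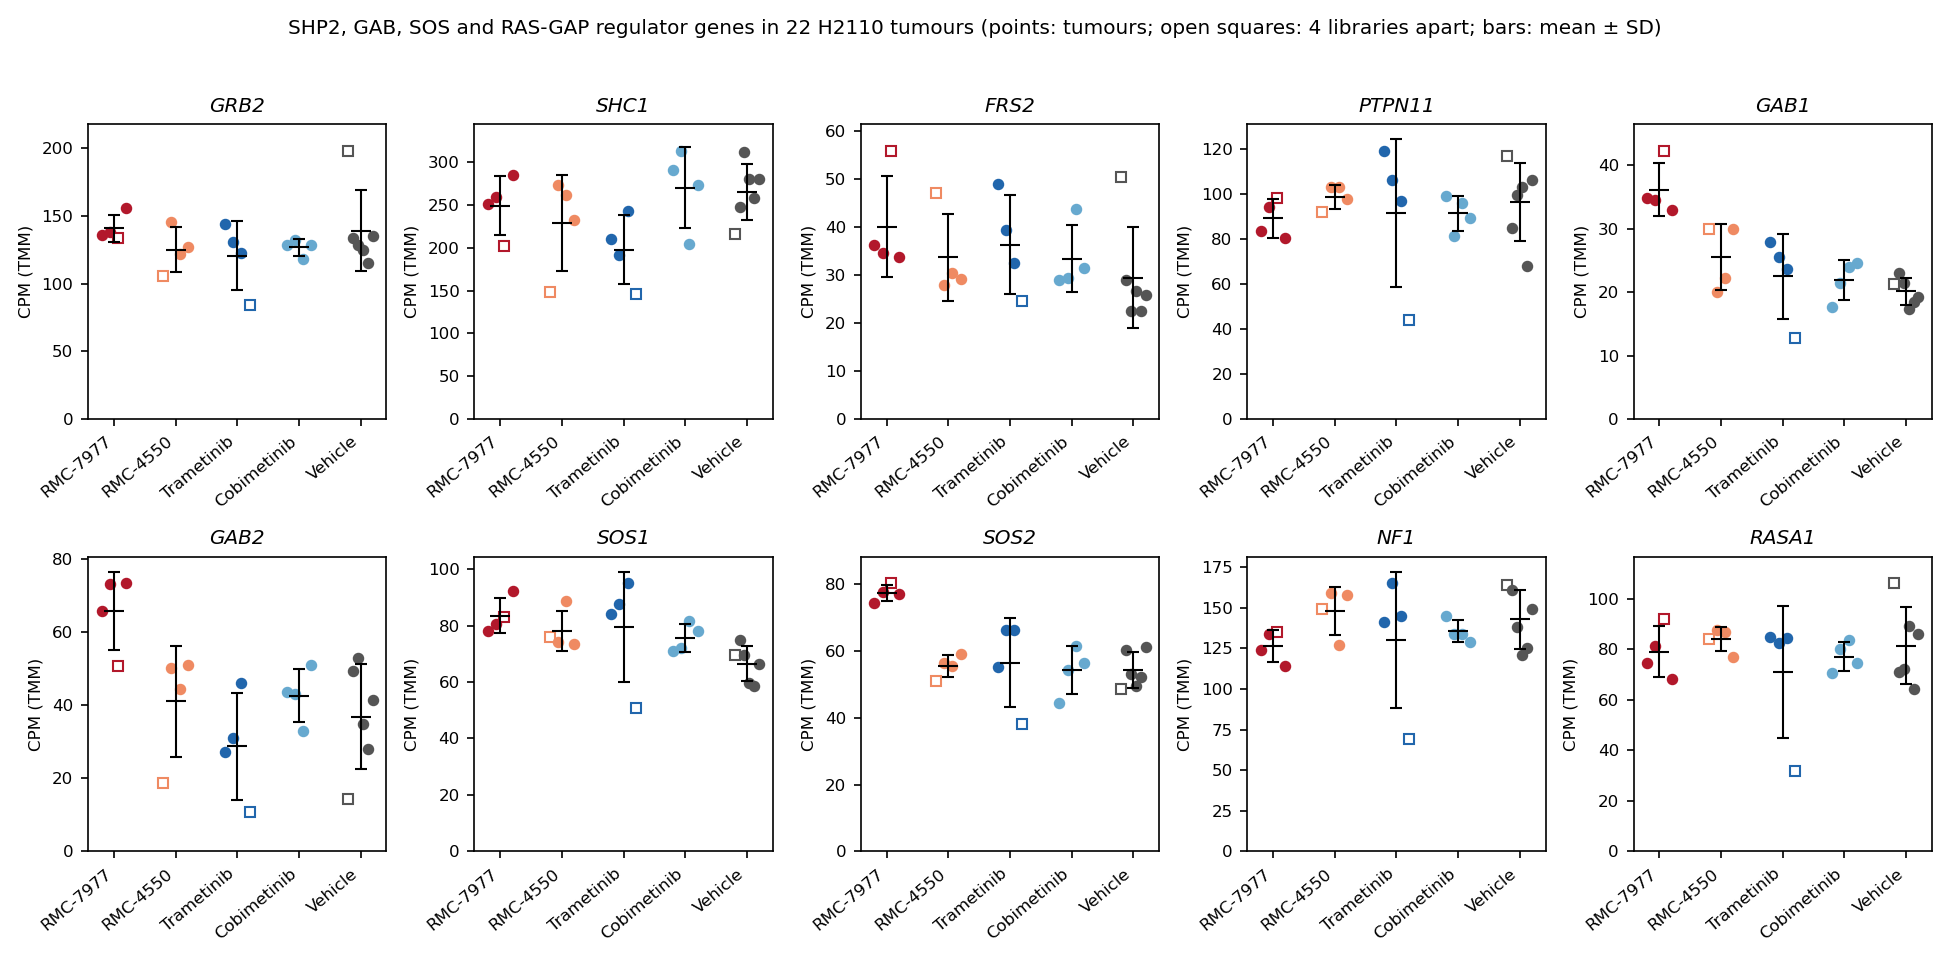
Level of each of the 10 genes in every tumour, in CPM on a linear axis from 0, for RMC-7977, RMC-4550, Trametinib, Cobimetinib and Vehicle. Points are tumours, open squares the 4 libraries that stood apart, and bars the mean and SD (n = 4, and 6 for Vehicle). The RMC-7977 tumours lie at 32.9 to 42.2 CPM for GAB1 and at 74.4 to 80.2 CPM for SOS2, above every other tumour.

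Per base of gene model, SHC1 was the most abundant of the 10 messages in Vehicle tumours and GAB1 the least. As levels in RPKM (CPM per kilobase of gene model, n = 6), SHC1 was at 61.2 ± 7.55 (SD), GRB2 at 29.6 ± 6.31, RASA1 at 15.6 ± 2.90 and PTPN11 at 13.7 ± 2.46. The exchange factors followed, SOS2 at 7.81 ± 0.77 and SOS1 at 7.17 ± 0.67, and then GAB2 at 5.45 ± 2.11, NF1 at 5.27 ± 0.67, FRS2 at 4.07 ± 1.45 and GAB1 at 1.99 ± 0.21. The ranges of the 6 tumours were apart between SHC1 and GRB2, GRB2 and RASA1, PTPN11 and SOS2, and FRS2 and GAB1, and overlapped between all other neighbours. Among tested genes SHC1 stood at the 96.8th percentile of RPKM and GAB1 at the 34.8th. The first 4 places and the last were the same in all 5 groups.

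Among the adaptors, GRB2, the SH2 and SH3 protein that carries SOS, had 136, 138, 134 and 156 CPM under RMC-7977, against a lowest of 115, a median of 132 and a highest of 198 under Vehicle. The tumours overlapped, and the log2 fold change of 0.01 ± 0.17 (SE) had an edgeR quasi-likelihood adjusted p of 0.994. The other drugs gave −0.16 for RMC-4550, −0.21 for Trametinib and −0.13 for Cobimetinib, none past the threshold, and without the 4 libraries apart 0.03, 0.03 and −0.01. Vehicle replicate 1 alone made the 198, while the other 5 Vehicle tumours had 115 to 135 CPM.

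SHC1, the most abundant adaptor, had 210, 192, 243 and 146 CPM under Trametinib, against 216, 269 and 312 as lowest, median and highest under Vehicle. The groups overlapped in 1 Trametinib tumour, and the log2 fold change was −0.43 ± 0.19 with an unadjusted p of 0.0335 and an edgeR quasi-likelihood adjusted p of 0.234. Without the 4 libraries apart the log2 fold change was −0.38 with an adjusted p of 0.0693, and with the GC correction −0.16 with an adjusted p of 0.43. SHC1 has the highest GC content of the 10, 56.5%. RMC-7977 tumours had 251, 260, 202 and 285 CPM, RMC-4550 tumours 149, 274, 262 and 232, and Cobimetinib tumours 291, 313, 204 and 274. These overlapped Vehicle, with log2 fold changes of −0.09, −0.21 and 0.03 in that order and none past the threshold. SHC1 shares 335 bases of exon (7.72%) with PYGO2 on the same strand, so a part of its count may be shared with that gene.

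FRS2, the docking adaptor of fibroblast growth factor receptors, had 36.2, 34.5, 55.8 and 33.8 CPM under RMC-7977, against 22.5, 26.3 and 50.4 as lowest, median and highest under Vehicle. All 4 RMC-7977 tumours were above the 5 Vehicle tumours at 22.5 to 28.9 CPM, and replicate 1 of Vehicle overlapped them. The log2 fold change was 0.44 ± 0.24 (edgeR quasi-likelihood adjusted p = 0.564) and 0.44 without the 4 libraries apart (adjusted p = 0.0672). It was 0.24 without RMC-7977 replicate 3 alone, 0.66 without Vehicle replicate 1 alone and 0.23 without both RMC-7977 replicate 3 and Trametinib replicate 4. Trametinib tumours had 48.9, 39.3, 32.6 and 24.6 CPM, a log2 fold change of 0.31 ± 0.24 (edgeR quasi-likelihood adjusted p = 0.484). Without the 4 libraries apart the Trametinib difference was 0.65 and passed, with an adjusted p of 0.0105, as did 15.1% of all genes in that fit. Under the correction for GC content it was 0.18 with an adjusted p of 0.386, and 0% of genes passed. FRS2 has a GC content of 36.9%, the lowest of the 10, and its 5 highest levels were in libraries with a negative GC correlation. The part of GC content in that difference beyond the correction was not tested, nor was that of the markers of other cell types. The endothelial, myeloid and lymphoid sums were highest in Trametinib replicate 4, which the fit without the 4 libraries apart leaves out.

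PTPN11, the SHP2 gene and the target of RMC-4550, had 91.8, 103, 103 and 97.6 CPM under RMC-4550, against 68.2, 101 and 117 as lowest, median and highest under Vehicle. The RMC-4550 tumours lay inside the Vehicle range, with a log2 fold change of 0.04 ± 0.20 (95% interval −0.38 to 0.45, edgeR quasi-likelihood adjusted p = 0.99). The other drugs gave −0.11 for RMC-7977, −0.07 for Trametinib and −0.08 for Cobimetinib. Without the 4 libraries apart RMC-4550 gave 0.12, Trametinib 0.19 and Cobimetinib −0.02, none past the threshold. In Trametinib replicate 4 PTPN11 was at 44.2 CPM, against 97.0 to 119 CPM in the other Trametinib tumours. PTPN11 overlaps RPL6, a ribosomal protein gene on the other strand, in 111 bases of exon (1.58%). RPL6 had 677% of the counts of PTPN11, and whether the counting used strand is not given, so reads of the shared bases cannot be told apart.

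GAB1, which SHP2 binds once it is phosphorylated, had 34.9, 34.5, 42.2 and 32.9 CPM under RMC-7977. RMC-4550 tumours had 29.9, 20.0, 22.2 and 29.9 CPM, Trametinib tumours 27.9, 25.6, 23.7 and 12.8, and Cobimetinib tumours 17.7, 21.4, 23.9 and 24.6. Vehicle tumours had a lowest of 17.4, a median of 20.2 and a highest of 23.0 CPM. Each RMC-7977 tumour was above all others, and the nearest were 2 RMC-4550 tumours at 29.9 CPM. RMC-7977 averaged 36.1 ± 4.17 CPM and Vehicle 20.1 ± 2.13 CPM (SD, n = 4 and 6).

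The fitted log2 fold change of GAB1 under RMC-7977 was 0.84 ± 0.19 (95% interval 0.46 to 1.23, edgeR quasi-likelihood adjusted p = 0.0274). Vehicle replicates 5, 6 and 7 share their number with no other tumour, so a block on the replicate number leaves them out of the difference. The call was lost with library size scaling (adjusted p = 0.0663), without the filter on low counts (0.145) and with the replicate number as a block (0.8). It was also lost without any 1 RMC-7977 tumour or without Vehicle replicate 5, 6 or 7, where the adjusted p was 0.0536 to 0.107, while the log2 fold change stayed between 0.76 and 0.87 over all 22 omissions. Without the 4 libraries apart it was 0.76 with an adjusted p of 0.00327, in a fit where 6.38% of all genes passed. With the GC correction it was 0.72 with an adjusted p of 0.0186, where 1.63% passed. Against Vehicle, GAB1 stood at 0.34 ± 0.19 for RMC-4550, 0.17 ± 0.19 for Trametinib and 0.12 ± 0.19 for Cobimetinib, none past the threshold, and without the 4 libraries apart at 0.26, 0.35 and 0.13. Each of these drugs had 2 or 3 of its 4 tumours above all 6 Vehicle tumours. The myeloid marker sums above were also apart between RMC-7977 and Vehicle, and their part in the difference of GAB1 was not tested.

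GAB2, the other docking protein, had 65.8, 73.3, 50.7 and 73.4 CPM under RMC-7977. RMC-4550 tumours had 18.8, 50.2, 44.5 and 51.0 CPM, Trametinib tumours 27.1, 31.1, 46.1 and 10.7, and Cobimetinib tumours 43.6, 43.2, 33.0 and 51.0. Vehicle tumours had a lowest of 14.4, a median of 38.3 and a highest of 53.1 CPM. In 3 of the 4 RMC-7977 tumours GAB2 was above all 18 tumours of the other groups, and RMC-7977 replicate 3 was below the highest Vehicle tumour. The log2 fold change of 0.83 ± 0.34 was as large as that of GAB1 with a wider error (95% interval 0.14 to 1.53, edgeR quasi-likelihood adjusted p = 0.343).

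The 4 libraries apart were the lowest GAB2 tumour of their own groups, with log2 differences from the rest of −0.48 for RMC-7977 replicate 3, −1.36 for RMC-4550 replicate 1, −1.65 for Trametinib replicate 4 and −1.47 for Vehicle replicate 1. Without those libraries the difference between RMC-7977 and Vehicle was 0.76 and passed (edgeR quasi-likelihood adjusted p = 0.0195) among the 6.38% of genes that did, and with the GC correction it was 0.92 with an adjusted p of 0.0743. GAB2 has a GC content of 54.5%, the second highest of the 10 after SHC1. GAB2 in the 3 other drugs differed from Vehicle by 0.16 for RMC-4550, −0.35 for Trametinib and 0.21 for Cobimetinib on the log2 scale, none past the threshold. Without the 4 libraries apart these were 0.22, −0.27 and 0.04.

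**Figure D2:**
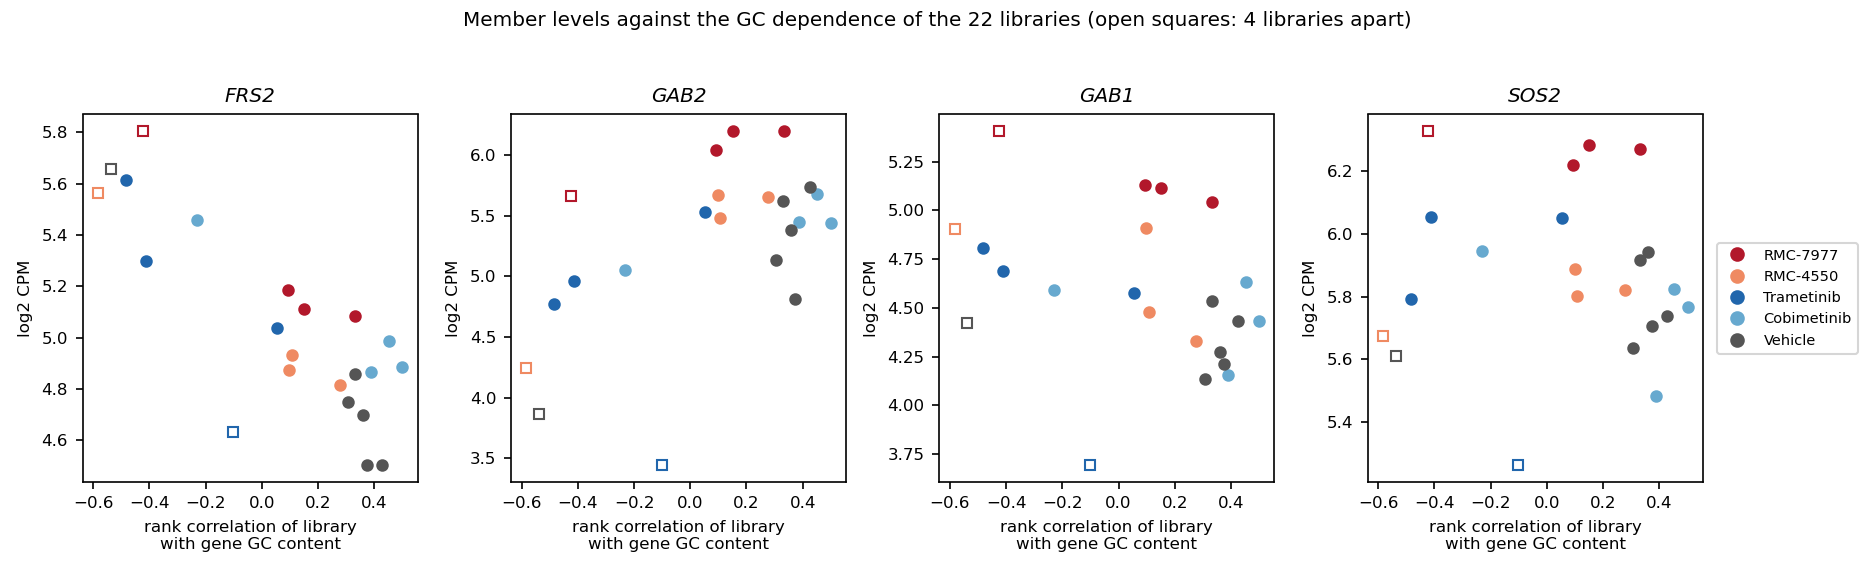
Level of FRS2, GAB2, GAB1 and SOS2 in log2 CPM against the rank correlation of each library's expression with gene GC content, 1 point per tumour, coloured by group, with open squares for the 4 libraries that stood apart. The 4 highest FRS2 points lie at the left. There GAB2 is at 18.8 CPM in RMC-4550 replicate 1 and 14.4 CPM in Vehicle replicate 1 but at 50.7 CPM in RMC-7977 replicate 3. The lowest GAB2 point, Trametinib replicate 4 at 10.7 CPM, lies nearer the middle, at a correlation of −0.10. The 4 RMC-7977 points of GAB1 and SOS2 lie at the top on both sides of 0.

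SOS1, a widely expressed exchange factor, had 78.2, 80.5, 83.0 and 92.4 CPM under RMC-7977, against 58.7, 67.9 and 74.7 as lowest, median and highest under Vehicle. All 4 RMC-7977 tumours were above all 6 Vehicle tumours. That held for 3 of the 10 members, SOS1, SOS2 and GAB1, and for 2.23% of tested genes. The log2 fold change was 0.33 ± 0.15 (edgeR quasi-likelihood adjusted p = 0.436). The RMC-4550 tumours had 75.9, 74.2, 88.7 and 73.3 CPM, the Trametinib tumours 84.1, 87.7, 94.9 and 50.9, and the Cobimetinib tumours 71.0, 72.0, 81.5 and 78.2. They overlapped Vehicle, with log2 fold changes of 0.23, 0.26 and 0.19 in that order. In 3 Trametinib tumours SOS1 was above every Vehicle tumour, and without the 4 libraries apart that difference was 0.41 and passed (edgeR quasi-likelihood adjusted p = 0.021), as did 15.1% of all genes. With the GC correction on all 22 tumours it was 0.09 with an adjusted p of 0.774. Neither difference of SOS1 passed in the fit of all 22 tumours.

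SOS2, the second exchange factor, had 74.4, 77.7, 80.2 and 77.0 CPM under RMC-7977. RMC-4550 tumours had 50.9, 56.3, 55.6 and 59.1 CPM, Trametinib tumours 55.3, 66.3, 66.2 and 38.2, and Cobimetinib tumours 44.5, 54.3, 61.5 and 56.5. Vehicle tumours had a lowest of 48.7, a median of 52.7 and a highest of 61.3 CPM. The RMC-7977 tumours were close to one another and above all 18 others, of which a Trametinib tumour at 66.3 CPM was the nearest. RMC-7977 averaged 77.3 ± 2.38 CPM and Vehicle 54.2 ± 5.37 CPM (SD, n = 4 and 6).

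The log2 fold change of SOS2 was 0.51 ± 0.15 (95% interval 0.20 to 0.82), with an unadjusted p of 0.00228 and an edgeR quasi-likelihood adjusted p of 0.118. It passed without the 4 libraries apart (0.45, adjusted p = 0.0238) and in DESeq2 (0.49, adjusted p = 0.00774), and not with the GC correction (0.41, adjusted p = 0.227). Leaving out Trametinib replicate 4, a library outside the comparison, was enough to pass it (0.50, adjusted p = 0.0189), and then 3.01% of all genes passed. RMC-4550, Trametinib and Cobimetinib gave 0.03, 0.06 and 0.00 for SOS2, with a 95% interval of −0.31 to 0.31 for Cobimetinib, and without the 4 libraries apart 0.03, 0.16 and −0.04.

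**Figure D3:**
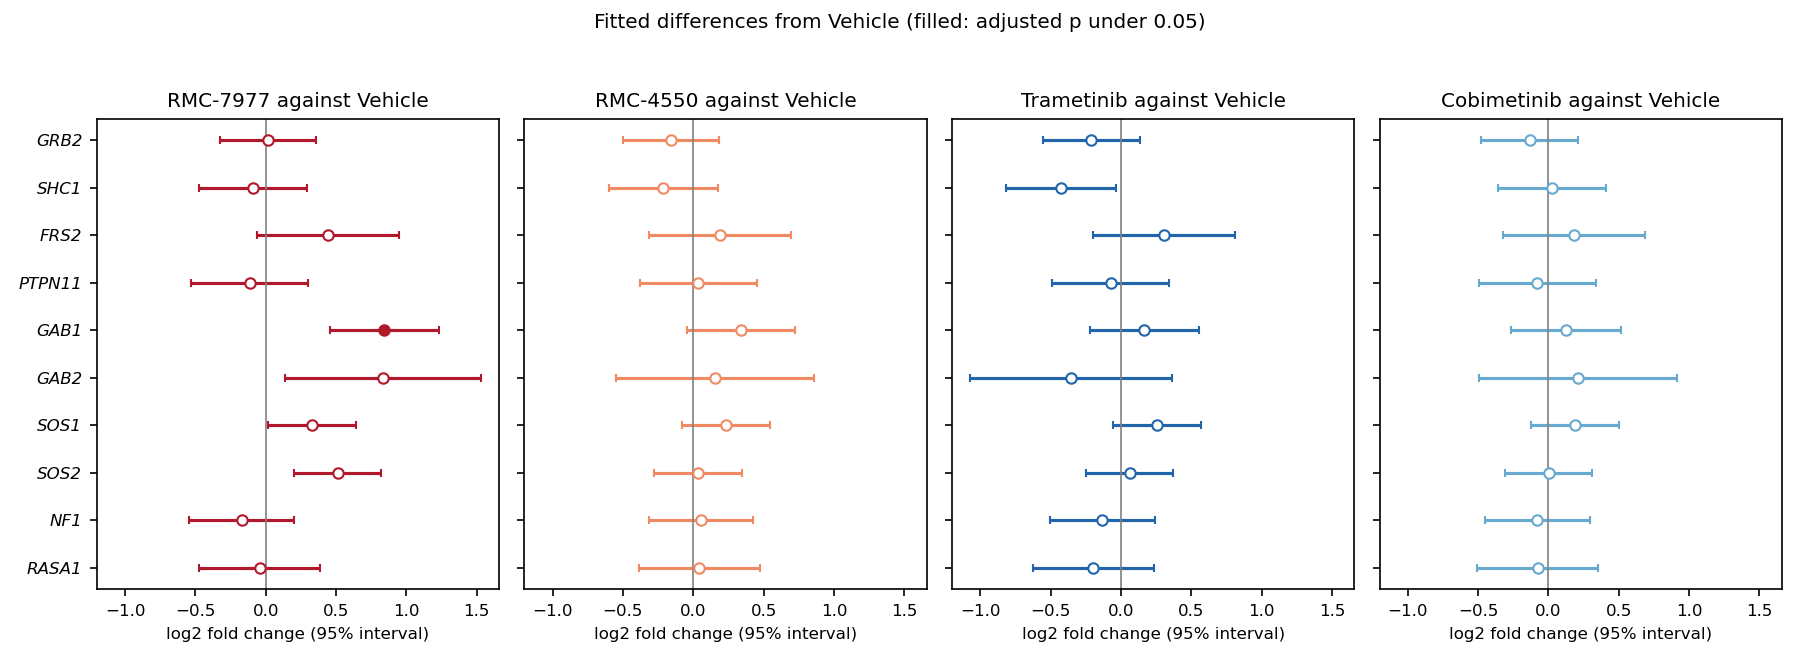
Fitted log2 fold change of each of the 10 genes against Vehicle with its 95% interval, 1 panel per drug. The filled point, GAB1 under RMC-7977 at 0.84, passed the threshold, and the intervals of GAB2, SOS1 and SOS2 under RMC-7977 and of SHC1 under Trametinib leave out 0 without passing after adjustment.

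The RefSeq promoter of SOS2 (GRCh38.p14) is shown because its message was higher in all RMC-7977 tumours, and that of NF1 because it acts against SOS2 and its groups overlapped. Promoters were matched for 5 of the 10 genes, GRB2, FRS2, SOS2, NF1 and RASA1. The SOS2 stretch is the 250 bases before its start, chr14:50231579-50231828 on the minus strand. The NF1 stretch is chr17:31094727-31094926 on the plus strand, 200 bases that end 50 bases before the RefSeq start. Capitals mark GGGCGG on either strand, the core of the SP1 motif, and TGACGTCA, the cyclic AMP response element (CRE).
SOS2: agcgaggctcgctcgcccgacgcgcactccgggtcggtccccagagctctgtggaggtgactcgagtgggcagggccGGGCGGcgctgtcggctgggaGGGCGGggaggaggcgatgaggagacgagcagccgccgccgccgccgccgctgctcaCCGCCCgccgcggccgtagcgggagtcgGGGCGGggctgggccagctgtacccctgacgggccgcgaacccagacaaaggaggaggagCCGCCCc
NF1: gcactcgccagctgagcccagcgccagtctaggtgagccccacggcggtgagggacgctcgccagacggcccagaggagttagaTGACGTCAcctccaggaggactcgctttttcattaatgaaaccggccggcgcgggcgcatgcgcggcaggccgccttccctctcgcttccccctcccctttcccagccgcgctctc
SOS2 holds 5 copies of GGGCGG and NF1 has none in these bases. In the 250 bases before the start, GGGCGG was found in 4 of the 5 matched genes (GRB2, FRS2, SOS2 and RASA1) and in 42.6% of 35114 promoters. TGACGTCA was in NF1 and in 1.65% of promoters, and CCGGAAG, an ETS motif, in FRS2 and in 8.52% of promoters. All 250 bases of RASA1 and the last 39 of FRS2, which hold its CCGGAAG, lie inside the annotated gene. Both strands of the 5 promoters held no TGANTCA (AP-1, in 6.57% of promoters), TGAATGAA (Capicua, 1.40%), GTAAACA (FOXO, 2.98%) or CACGTG (E-box, 6.35%). These matches describe the letters and not binding.

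NF1, the neurofibromin GTPase activator, had 124, 134, 135 and 114 CPM under RMC-7977, against 121, 143 and 164 as lowest, median and highest under Vehicle. The tumours overlapped, with a log2 fold change of −0.17 ± 0.18 (95% interval −0.54 to 0.20, edgeR quasi-likelihood adjusted p = 0.856). The log2 fold changes of NF1 were 0.05 for RMC-4550, −0.13 for Trametinib and −0.08 for Cobimetinib, none past the threshold, and without the 4 libraries apart 0.08, 0.09 and −0.04. NF1 has 12 annotated pseudogenes, which held 0 counts.

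RASA1, the p120 RAS GTPase activator, had 74.7, 81.2, 92.1 and 68.1 CPM under RMC-7977, against 64.3, 79.1 and 106 as lowest, median and highest under Vehicle. RMC-7977 lay inside the Vehicle range, with a log2 fold change of −0.04 ± 0.21 (edgeR quasi-likelihood adjusted p = 0.988). The other drugs gave 0.04 for RMC-4550, −0.20 for Trametinib and −0.08 for Cobimetinib. The Trametinib value rested on replicate 4, at 31.8 CPM against 82.6 to 84.7 CPM in the other 3, and was 0.01 without it. Without the 4 libraries apart RASA1 stood at 0.12, 0.11 and 0.00 for RMC-4550, Trametinib and Cobimetinib. RASA1 shares 771 bases of exon (14.7%) with CCNH on the other strand, and genes that overlap it there had 41.4% of its counts, so its level may hold reads of CCNH.

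The 10 members together had a median log2 fold change against Vehicle of 0.17 for RMC-7977, 0.05 for RMC-4550, −0.10 for Trametinib and 0.01 for Cobimetinib. The median of all tested genes was −0.00635 to −0.005 in these comparisons. Positive values were found for 6, 8, 4 and 6 of the 10 members in that order, beside 48.8% to 49.6% of all tested genes. Members past the threshold numbered 0 for RMC-4550 (0.0283% of all tested genes passed), 0 for Trametinib (0%) and 0 for Cobimetinib (0%) in the edgeR quasi-likelihood test. At an unadjusted p under 0.05 the numbers were 4 for RMC-7977, 0 for RMC-4550, 1 for Trametinib and 0 for Cobimetinib, and DESeq2 passed 2, 0, 0 and 0. The shares of all tested genes were 10.3%, 4.24%, 18.8% and 3.3% at that unadjusted p and 3.04%, 0.198%, 2.09% and 0.00567% in DESeq2. Without Trametinib replicate 4 the Trametinib median was 0.08 with 7 members positive. Without the 4 libraries apart the medians were 0.24 for RMC-7977, 0.12 for RMC-4550, 0.13 for Trametinib and −0.01 for Cobimetinib. With the GC correction they were lower, at 0.12, −0.05, −0.12 and −0.02 in that order, with 6, 4, 2 and 4 members positive. Apart from FRS2, every member had its lowest level of all 22 tumours in Trametinib replicate 4. The 4 drugs were compared with the same Vehicle tumours, so these comparisons are not independent.

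Drugs were also compared directly at these doses, which differ between the compounds. GAB1 was higher under RMC-7977 than under RMC-4550 by 0.51 ± 0.21 on the log2 scale, than under Trametinib by 0.68 ± 0.21 and than under Cobimetinib by 0.72 ± 0.21. The edgeR quasi-likelihood adjusted p-values were 0.549, 0.106 and 0.173, though all 4 RMC-7977 tumours were above all tumours of each other drug. For SOS2 the same 3 differences were 0.48, 0.45 and 0.51, each with an SE of 0.165 or less and adjusted p-values of 0.367, 0.157 and 0.283 and again no overlap. GAB2 differed most from Trametinib, by 1.19 ± 0.38 (adjusted p = 0.116). Of the 10 members 2, 3 and 3 had no overlap with RMC-4550, Trametinib and Cobimetinib, GRB2 being the third with Cobimetinib at 134 to 156 CPM under RMC-7977 against 118 to 132 CPM. Of all tested genes 3.79%, 3.22% and 5.74% had none in that direction.

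No member passed in any of the 6 pairs of drugs, by the edgeR quasi-likelihood test. Of all tested genes 0.0906% passed between RMC-7977 and RMC-4550, 0.408% between RMC-7977 and Trametinib, 0.278% between RMC-7977 and Cobimetinib and 0.0283% between RMC-4550 and Cobimetinib, and 0% in the other pairs. Over the 6 pairs 8 results of members had an unadjusted p under 0.05, beside 11.4% of all results, and DESeq2 passed 5, beside 1.57%. Between RMC-4550 and Trametinib the log2 differences of GAB1, SOS1 and SOS2 were 0.17, −0.03 and −0.03. In 1 test of any difference among the 5 groups, which 1.46% of all genes passed, no member passed. GAB1 had the smallest adjusted p (0.0811), followed by SOS2 (0.187) and GAB2 (0.314) by the edgeR quasi-likelihood F-test. In that test 3 members had an unadjusted p under 0.05, beside 15.5% of genes, and DESeq2 passed 2, beside 7.42%.

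**Figure D4:**
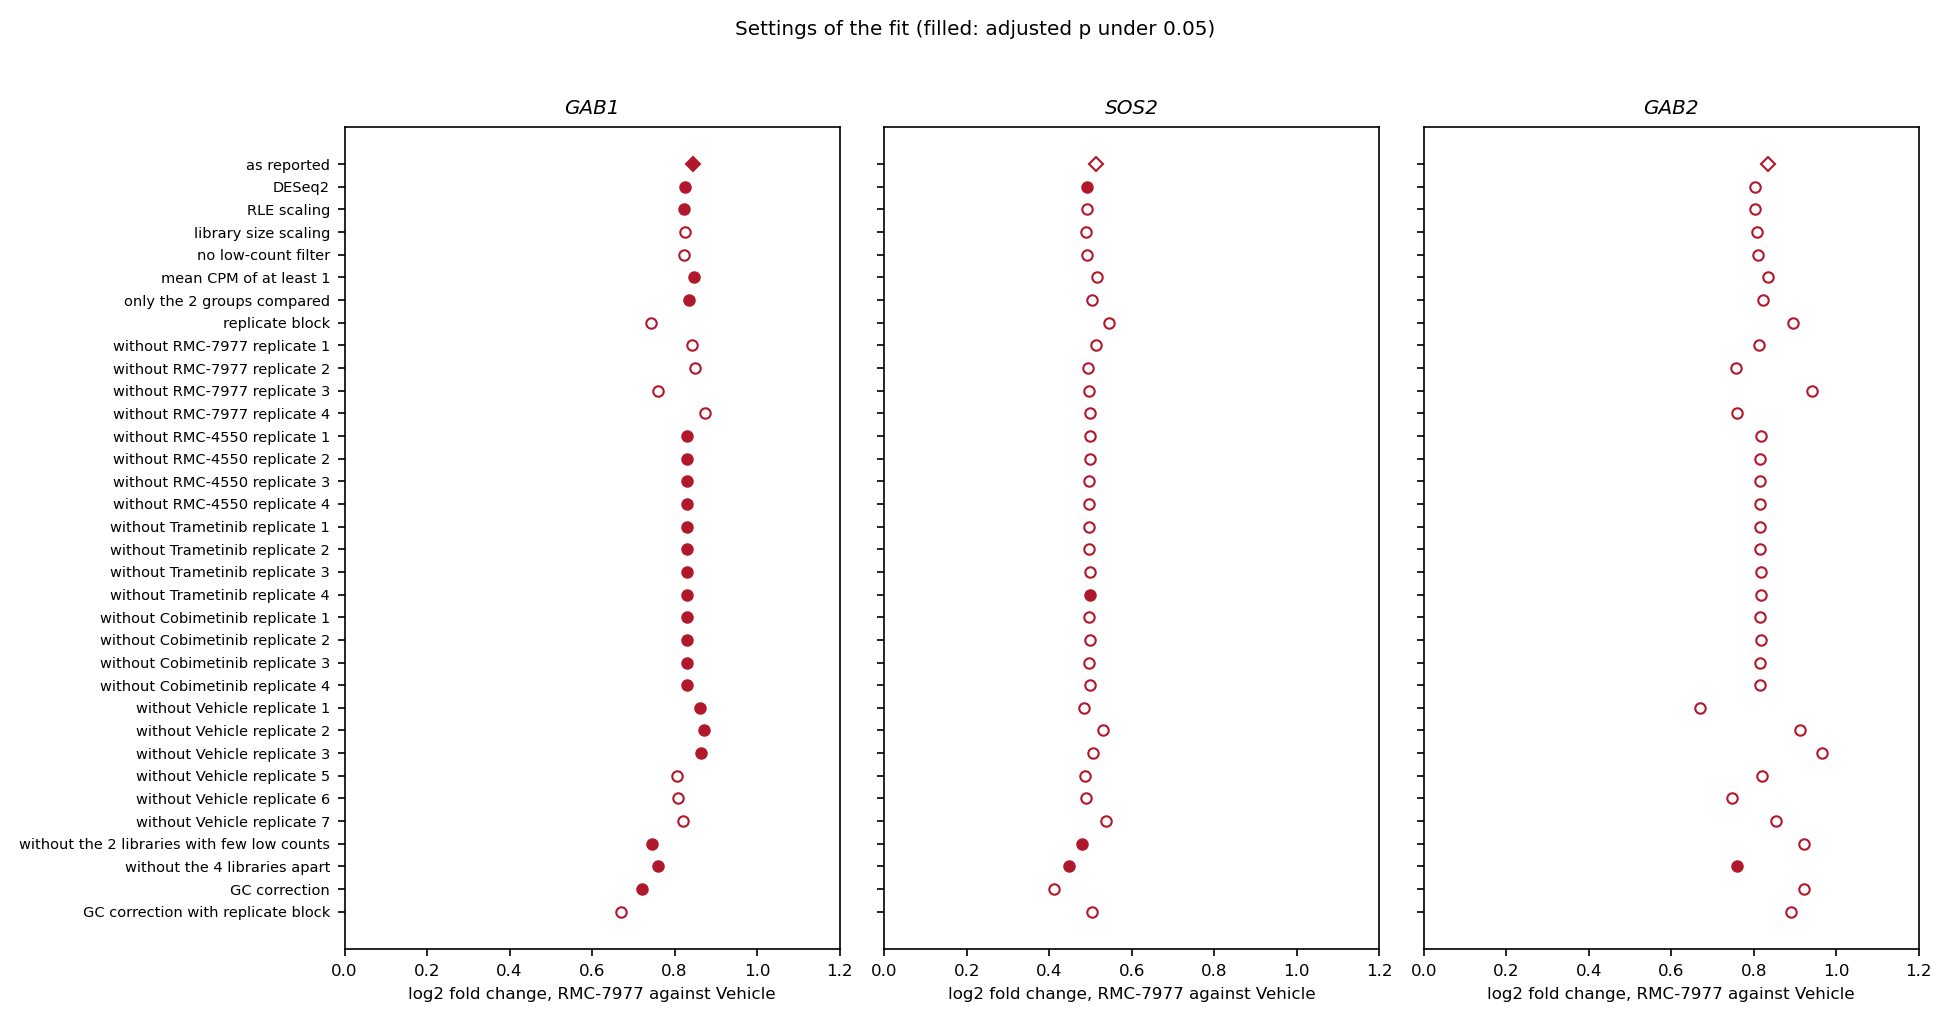
Log2 fold change of GAB1, SOS2 and GAB2 in RMC-7977 tumours against Vehicle under each setting of the fit and with each tumour left out, filled where the adjusted p was under 0.05. GAB1 stays between 0.67 and 0.87, SOS2 between 0.41 and 0.55 and GAB2 between 0.67 and 0.97, while the fill, the call, changes with the setting.

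Ratios within a library do not depend on how libraries are scaled, and 3 pairs of related members were set against each other as log2 ratios of counts per base of gene model. SOS2 over SOS1 was 0.35, 0.37, 0.37 and 0.16 in the RMC-7977 tumours, a mean of 0.31 ± 0.10. It averaged −0.07 ± 0.17 with RMC-4550, −0.07 ± 0.10 with Trametinib, −0.07 ± 0.13 with Cobimetinib and 0.12 ± 0.15 with Vehicle (SD). In 3 of the 4 RMC-7977 tumours the ratio was above all Vehicle tumours, which ran from −0.10 to 0.30, and each RMC-7977 tumour was above all 12 tumours of the other drugs. GAB1 over GAB2 overlapped Vehicle in every drug and ranged widely, from −1.89 to −0.02 within Vehicle, with the 2 highest values in RMC-4550 replicate 1 and Vehicle replicate 1. RASA1 over NF1 also overlapped, with means of 1.68 ± 0.09 under RMC-7977 and 1.55 ± 0.26 under Vehicle.

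**Figure D5:**
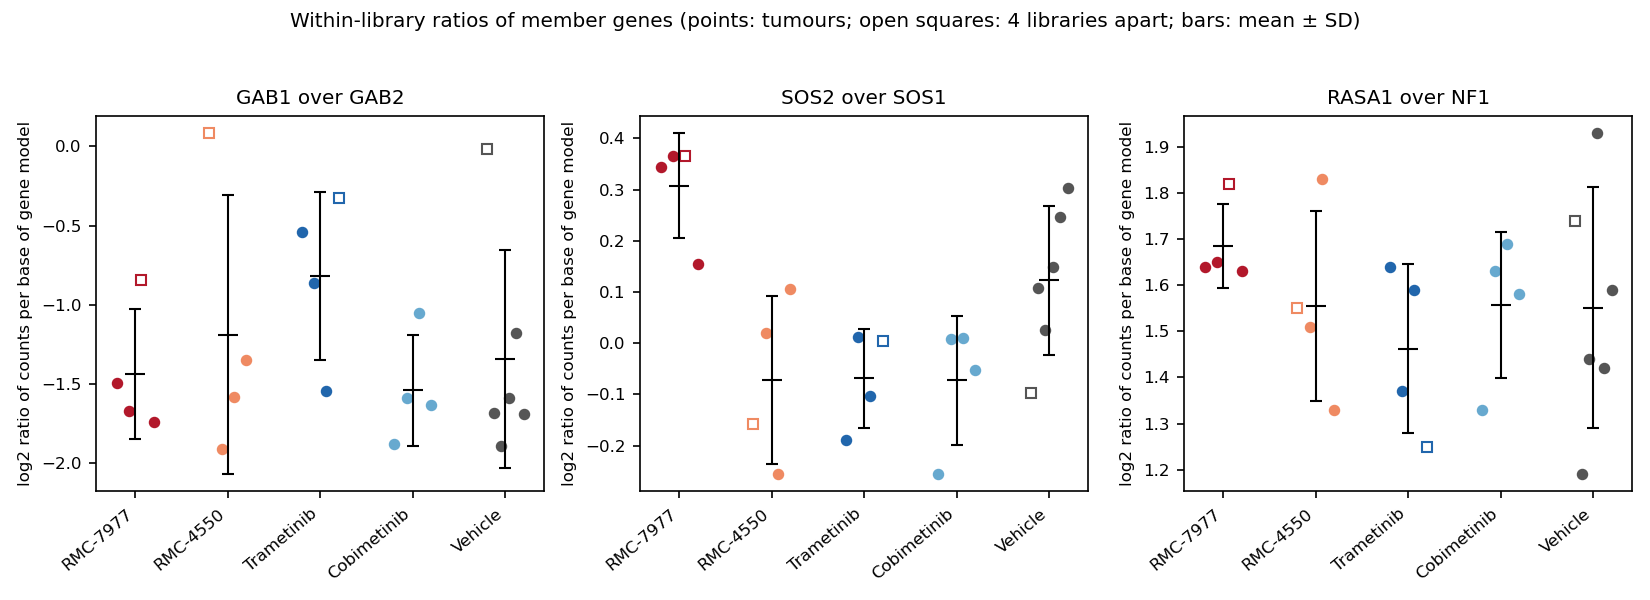
Log2 ratio of counts per base of gene model for GAB1 over GAB2, SOS2 over SOS1 and RASA1 over NF1 in every tumour, with mean and SD by group and open squares for the 4 libraries that stood apart. The RMC-7977 tumours lie at 0.16 to 0.37 for SOS2 over SOS1, above all tumours of the other drugs but overlapping Vehicle at −0.10 to 0.30. The groups overlap for the other 2 ratios.

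Over the 22 tumours the protein-coding genes with log2 CPM most like GAB1 were ABLIM1 (Pearson r = 0.92), TPD52 (0.92) and SH3YL1 (0.91), out of 11042 genes compared. For SOS2 they were FAM114A1 (0.93), ABLIM1 (0.91) and IDS (0.88). GAB2 was most like FYCO1 (0.96), RTL10 (0.96) and TRAK1 (0.95), which have GC contents of 53.3% to 54.3%, near its own 54.5%. Spearman's rho for these 9 was 0.80 to 0.91, and without the 4 libraries apart their r was 0.85 to 0.93. The tumours share group, depth and GC dependence, so the r are descriptions. ABLIM1, which is on the lists of both GAB1 and SOS2, rose by 1.03 on the log2 scale under RMC-7977 (edgeR quasi-likelihood adjusted p = 0.0194). It was picked for its likeness to these members over the same tumours, so its rise is not a separate result. The other genes listed did not pass, with adjusted p-values in that test from 0.0763 for FAM114A1 to 0.691 for TRAK1.

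Other regulators at the same step were described from a list of 46 adaptors, exchange factors, RAS GTPase activators and NF1 partners, of which 34 were tested. Under RMC-7977 1 of the 34 fell and none rose by edgeR's quasi-likelihood test, 7 had an unadjusted p under 0.05, and DESeq2 passed 3, beside 0.748%, 10.3% and 3.04% of all tested genes. The gene that fell was SPRED1, which brings NF1 to the membrane. SPRED1 averaged 5.74 ± 0.74 CPM under RMC-7977 and 12.7 ± 2.67 CPM under Vehicle, a log2 fold change of −1.15 ± 0.22 (edgeR quasi-likelihood adjusted p = 0.0109), with no overlap of tumours. For RMC-4550, Trametinib and Cobimetinib 0 of the 34 passed, with 2, 8 and 3 at an unadjusted p under 0.05, beside 4.24%, 18.8% and 3.3% of all genes, and 0, 2 and 0 in DESeq2. By role, the median log2 fold change under RMC-7977 was −0.44 for 16 other adaptors, 0.28 for 8 other exchange factors and −0.07 for 10 other GTPase activators and NF1 partners.

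Beside these, 6 of 9 tested genes of MAPK output fell under RMC-7977 and 1 of 9 under RMC-4550 by edgeR's quasi-likelihood test, where 0.748% and 0.0283% of all tested genes passed, and 0 of 9 for Trametinib and Cobimetinib. At an unadjusted p under 0.05 there were 7 for RMC-7977, 7 for RMC-4550, 8 for Trametinib and 3 for Cobimetinib, beside 10.3%, 4.24%, 18.8% and 3.3% of all tested genes. DESeq2 passed 7, 4, 6 and 0, beside 3.04%, 0.198%, 2.09% and 0.00567%. The mean log2 CPM of the 9 genes was 2.67 ± 0.27 in RMC-7977 tumours, 3.31 ± 0.41 with RMC-4550, 3.23 ± 0.77 with Trametinib, 4.18 ± 0.21 with Cobimetinib and 4.81 ± 0.38 with Vehicle (SD). DUSP6, the ERK phosphatase whose message tracks ERK activity, averaged 1.42 ± 0.31 CPM in RMC-7977 tumours, 1.60 ± 0.70 with RMC-4550, 2.55 ± 1.79 with Trametinib, 5.81 ± 1.33 with Cobimetinib and 18.5 ± 6.59 with Vehicle. SPRY4, a feedback inhibitor of receptor signalling, averaged 0.30 ± 0.29 CPM under RMC-7977 and 3.38 ± 1.32 CPM under Vehicle. Between RMC-7977 and RMC-4550 the median log2 difference of the 9 genes was −0.84, and none passed, beside 0.0906% of all tested genes. In DESeq2 2 passed, beside 0.946%. At an unadjusted p under 0.05 there were 3, beside 11.4% of the results of all genes over the 6 pairs of drugs. RIT1, the gene in the study's title, averaged 145 ± 14.8 CPM under RMC-7977 and 118 ± 17.1 CPM under Vehicle and was not past the threshold (0.29 ± 0.17, edgeR quasi-likelihood adjusted p = 0.606).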

How the data were processed

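The authors deposited raw read counts per gene as whole numbers. The submitters' processing notes name hg38, featureCounts (1.5.0-p3), HISAT2 (2.0.5), fastp, edgeR (3.22.5) and DESeq2 (1.20.0), and per the labels' protocols the libraries were strand-specific. Whether counting used strand or host reads were removed is not given in the sources used here. All 58735 genes had the same start and end in GENCODE 29, from which exon overlaps and GC content were taken.

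In R (4.3.3) genes were kept by edgeR (4.0.16) filterByExpr with a minimum of 10, which left 17652 genes with 99.718% of counts. Libraries were scaled by TMM, and all 22 tumours entered 1 robust quasi-likelihood fit. The 10 comparisons and a test among the 5 groups used 2-sided F-tests, Benjamini-Hochberg adjustment over all tested genes and a threshold of 0.05. The code was tested on simulated data. No 2 libraries were identical.

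The 10 members were always named. DUSP6, SPRY4 and RIT1 served as reference points, lists gave up to 4 genes per comparison, and the 3 most correlated genes were named for 3 members. Members and lists were chosen with earlier results of these data known. Alternatives were DESeq2 (1.42.0), other scalings and filters, only the 2 groups compared, a replicate block and each tumour left out. Leaving out libraries that stood apart and the GC correction were chosen after seeing the data. Same-numbered tumours deviated together from their group means, with every correlation over 0.1, for RMC-4550 with Vehicle (3 pairs, 0.17 to 0.71) and Trametinib with Vehicle (3 pairs, 0.14 to 0.20). This comes from the data, as no label explains the number. Intervals cover the fit and not molecules, since no molecular identifiers are named.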

Additional observations from a re-analysis of the deposited data

Results flagged for a closer look

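Of 50 groups of values looked at, 10 genes in 5 groups, 6 held a tumour far from the others of its group by Dixon's criterion, where chance gives about 1 in 20 (5%). All 6 were in the 4 libraries that stood apart. GRB2 was at 198 CPM in Vehicle replicate 1, against 115 to 135 CPM in the other Vehicle tumours. FRS2 was high in 3 of them, at 55.8 CPM in RMC-7977 replicate 3 against 33.8 to 36.2 CPM in the rest of its group, at 47.1 CPM in RMC-4550 replicate 1 against 28.0 to 30.4 CPM, and at 50.4 CPM in Vehicle replicate 1 against 22.5 to 28.9 CPM. GAB2 was low in RMC-4550 replicate 1, at 18.8 CPM against 44.5 to 51.0 CPM. RASA1 was at 31.8 CPM in Trametinib replicate 4, against 82.6 to 84.7 CPM in the other Trametinib tumours.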

How the results depend on the processing

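The number of members past the threshold for RMC-7977 against Vehicle was 1, and became 2 in DESeq2, 0 with library size scaling, without the filter on low counts and with the replicate block, 2 without the 2 libraries with few low counts, 3 without the 4 libraries apart, 0 with the GC correction and block together, and 0 to 2 with each tumour left out. The share of all genes that passed was 0.748%, and 3.04% in DESeq2, 0.64% with library size scaling, 0.187% without the filter, 0.0113% with the block, 2.07% without the 2 libraries, 6.38% without the 4 and 0.136% with GC correction and block. GAB1 had an adjusted p of 0.0663 with library size scaling, 0.145 without the filter, 0.8 with the block and 0.465 with block and GC correction. For Trametinib the number was 0 and became 2 without the 4 libraries apart, where 15.1% of all genes passed. Over the 6 pairs of drugs it was 0, and became 5 in DESeq2, 1 with only the 2 groups compared, 4 without the 4 libraries apart, 1 with the GC correction and 0 to 1 with each tumour left out. In DESeq2 1.57% of the results of all genes over the pairs passed. The 4 calls without the 4 libraries apart were between RMC-7977 and Trametinib or Cobimetinib, where 941 and 674 of 17761 genes passed. The single omissions gave GAB1 against Cobimetinib without Trametinib replicate 4 and GAB2 against Trametinib without its replicate 3. In those fits 202 and 1288 genes passed in the same pair. For only the 2 groups compared and for the GC correction these shares are not given here. Single omissions aside, genes passing between RMC-7977 and Trametinib ran from 0 (only the 2 groups compared) to 941 (without the 4 libraries). Between RMC-7977 and Cobimetinib they ran from 25 (no filter) to 674 (without the 4 libraries). The fit reported had 72 and 49. In the test among the 5 groups the number of members was 0, and became 2 in DESeq2, 1 with a mean CPM of at least 1, 4 without the 4 libraries apart, 1 with the GC correction and 0 to 1 with each tumour left out. The share of all genes in that test was 1.46%, and 7.42%, 3.5%, 12.1% and 2.97% in those 4 settings in that order. For RMC-4550 and Cobimetinib it stayed 0 throughout. Of 3300 log2 fold changes of members under alternatives, 3269 kept their side of the threshold, 11 lost it and 20 passed it. None that passed in either fit changed sign, while 222 that passed in neither did, the largest at 0.209 in the fit reported. All genes past the threshold for RMC-7977 against Vehicle ran from 2 with the block to 1134 without the 4 libraries apart, 541 without Trametinib replicate 4 alone. The GC correction moved the median of all genes between RMC-4550 and Trametinib by −0.10. Same-numbered RMC-7977 and Vehicle tumours did not deviate together (−0.23 to 0.03). The replicate block was fitted with all groups. Numbers 5, 6 and 7 occur only in Vehicle, so with the block those tumours added nothing to the differences from Vehicle. For RMC-4550 and Trametinib no member passed with the block or in the fit reported, so no call of a member could be lost. Over all genes 5 passed for RMC-4550 in the fit reported and 0 with the block. The causes of these changes were not tested.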
